A study of Macaca mulatta with 5 samples.

Results

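The regions described here are the peaks of MeDIP signal that lay inside rhesus monkey (Macaca mulatta) chromosome 19, away from its ends. In MeDIP-seq an antibody pulls down sheared methylated DNA, which is then sequenced, and a peak is a place where the sequenced fragments pile up above their surroundings. A peak was a member if it lay on chromosome 19, was shorter than 1000 bp and had its midpoint more than 5 Mb from position 1 and from the last base, taken as 64156621, the largest end of a chromosome 19 peak in either list. The rule found 1160 members among 48838 peaks of the embryonic stem cell library (rESC) and 2091 among 83528 peaks of the R_NSCP1 library, 3251 of 132366 in all. It uses position and length, and no measured height.

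The series set rESC against cells labelled R_NSCP1, under a title on the choice of a neural fate by embryonic stem cells. The labels give embryonic stem cell as the cell type of every sample, do not spell out R_NSCP1, and state no treatment, time or genotype. There was 1 MeDIP library and 1 long noncoding RNA (lncRNA) library per cell type, and a MeDIP input mixed from both was not analysed here. With 1 library per cell type no difference between the cell types, or between chromosome 19 and the other autosomes, could be tested, and every interval below covers counting error only. The rESC library held 8690541 tags and the R_NSCP1 library 9071243 tags of 33 bp, with at most 1 kept per position.

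Methyl groups on cytosine are placed mostly where cytosine is followed by guanine, and the MeDIP antibody draws down best those fragments that carry several of them. Peak lists therefore favour methylated DNA that is rich in such CpG sites, and leave out methylated DNA in which they are sparse. Rhesus chromosome 19 is the counterpart of human chromosome 19, which is known for its density of genes and of CpG sites and for long clusters of zinc finger genes. Positions below are those of the files, on a build not given in the sources used here. Since the files name no genes, no gene or sequence is assigned to them.

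Members were denser inside chromosome 19 than inside any other autosome in both libraries. In rESC there were 21.4 peaks per Mb (95% exact Poisson interval 20.2 to 22.7), against 14.1 over the insides of the other 19 autosomes together. In R_NSCP1 there were 38.6 per Mb (37.0 to 40.3), against 24.8. Chromosome 19 made up 2.14% of the length inside the 20 autosomes, and held 3.21% of the rESC peaks and 3.29% of the R_NSCP1 peaks there. The density was 1.52 times that of the other autosomes in rESC and 1.56 times in R_NSCP1. The next densest autosome was chromosome 10, with 20.04 peaks per Mb in rESC (19.1 to 21.01) and 37.2 in R_NSCP1 (35.9 to 38.5), and its intervals overlapped those of chromosome 19. The sparsest was chromosome 5, with 11.2 and 18.5.

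A stretch of 10.3 Mb without a peak in either library, from 24233813 to 34513010, took up 18.98% of the inside of chromosome 19. Chromosome 20 was the only other autosome with a longer one, of 14.2 Mb, and the median of the longest such stretches over the other autosomes was 1.69 Mb. A peak list holds no coverage, so whether any tags were placed in this stretch is unknown. With the longest empty stretch of each autosome taken out of its length, a count made after the data were seen, chromosome 19 held 26.4 peaks per Mb in rESC and 47.7 in R_NSCP1. These densities were 1.83 and 1.88 times those of the other autosomes, and chromosome 10 then stood at 20.4 and 37.9.

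**Figure D1:**
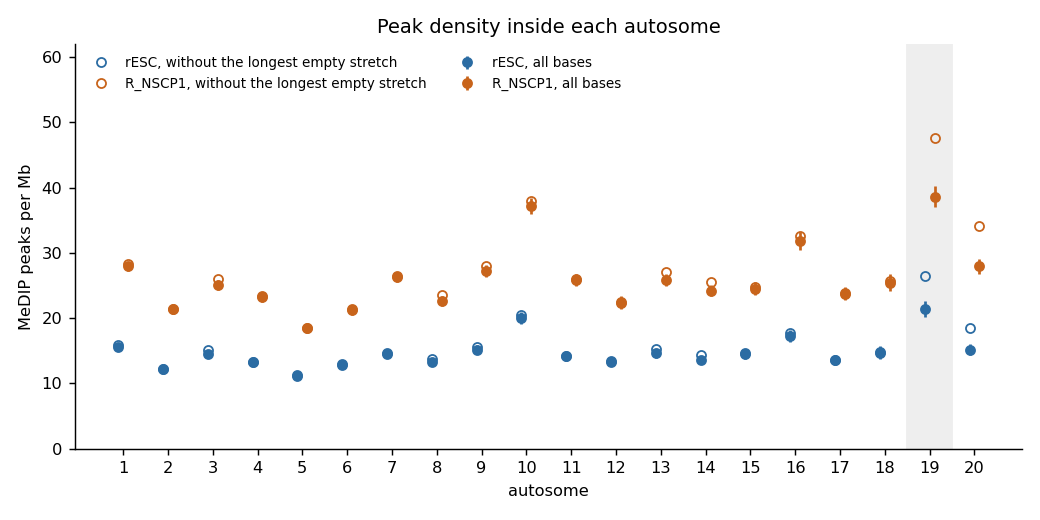
Peaks per Mb (y axis) inside each of the 20 autosomes (x axis), in rESC (blue) and R_NSCP1 (orange). Filled points count over all bases between the 5 Mb limits, with bars for the 95% exact Poisson interval, and open points leave out the longest peak-free stretch. Chromosome 19, shaded, stands highest in both libraries, at 21.4 and 38.6 over all bases and at 26.4 and 47.7 without the empty stretch.

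R_NSCP1 had 1.80 times as many members as rESC (95% exact binomial interval of the counts 1.68 to 1.94). Inside the other autosomes together the ratio was 1.76 (1.73 to 1.78), and single autosomes ran from 1.65 on chromosome 5 to 1.85 on chromosome 10. Chromosome 19 ranked sixth among the 20. With the full lists, the surplus of R_NSCP1 peaks was thus of the same size there as elsewhere within counting error. The size of the surplus depended on how deep into each list peaks were taken: among the 48838 strongest peaks of each library it was 1.14, and among peaks with a −log10 q of at least 10 it was 2.51. In these shorter lists the surplus was larger inside chromosome 19 than elsewhere. Its density over that of the other autosomes was 1.77 in R_NSCP1 against 1.52 in rESC with equal lists. At a −log10 q of at least 10 it was 1.79 against 1.62. No interval was computed for these contrasts.

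Along the chromosome, the members fell into a stretch before the peak-free gap and a stretch after it, with like densities. Before it, from 5000001 to 24233812, rESC had 492 peaks or 25.6 per Mb, and after it, from 34513011 to 59156621, it had 668 or 27.1 per Mb. R_NSCP1 had 894 (46.5 per Mb) and 1197 (48.6 per Mb). The ratio of R_NSCP1 to rESC peaks was 1.82 (1.63 to 2.03) before the gap and 1.79 (1.63 to 1.97) after it. The shares of peaks found in both libraries also differed by less than their intervals, at 75.4% and 74.0% of rESC peaks and 41.4% and 41.2% of R_NSCP1 peaks.

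The 5 Mb just before the gap were the sparse part. They held 12.0 rESC peaks per Mb (9.16 to 15.4) and 23.0 R_NSCP1 peaks per Mb (18.99 to 27.6), where the rest of that side held 30.4 and 54.7. The 5 Mb just after the gap held 125 rESC peaks and 231 R_NSCP1 peaks, or 46.2 per Mb for the latter, and the rest of that side held 27.6 and 49.2 per Mb, so no such step was seen there within the intervals. Towards the ends of the chromosome, outside the limits, peaks of any length were denser still: 43.6 per Mb in rESC and 83.6 in R_NSCP1 over the first 5 Mb, and 32.2 and 56.6 over the last 5 Mb.

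In windows of 1 Mb the same places were dense in both libraries. Of the 54 full windows inside chromosome 19, 9 held no peak and 45 held at least 1. Over those 45, a window had a median of 26 rESC peaks (range 1 to 49) and 48 R_NSCP1 peaks (range 2 to 78), where windows with a peak inside the other autosomes had medians of 13 and 23. The 3 fullest windows were the same in both libraries: 49 rESC and 75 R_NSCP1 peaks from 8000001, 45 and 78 from 5000001, and 42 and 73 from 56000001. The window from 24000001, at the edge of the gap, held the fewest of any window with a peak, 1 and 2. It was followed in rESC by the window from 20000001, with 5 rESC and 19 R_NSCP1 peaks, and in R_NSCP1 by the window from 34000001, with 11 and 13. The windows from 21000001 and 23000001 held 10 rESC peaks each, beside 24 and 15 in R_NSCP1. Across the 46 windows with a peak, the last of them partial, the counts of the libraries went together (Pearson r 0.911, Spearman rho 0.851), which is given as a description of windows that share chromosome, base composition and libraries.

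R_NSCP1 had more peaks than rESC in 46 of these 46 windows. Its list was longer inside the other autosomes too, by 1.76 times. The same count was not made there, so this is not given as a trait of chromosome 19. Among the 45 windows with at least 10 peaks over both libraries, 12 (26.7%) had at least 2-fold more R_NSCP1 peaks, where over the insides of all 20 autosomes 32.5% of such windows did. None had 2-fold more rESC peaks, which with 45 windows allows a share of up to 6.67%, and over all autosomes the share was 0%. The 12 windows were spread over both sides of the gap, starting at 10000001, 14000001, 17000001, 20000001 and 21000001 before it and at 35000001, 37000001, 38000001, 41000001, 42000001, 55000001 and 58000001 after it. The highest ratio, 3.80 (1.37 to 13.0), came from 5 rESC peaks in the window from 20000001. The window from 10000001, with 20 rESC and 62 R_NSCP1 peaks and a ratio of 3.10 (1.85 to 5.42), was the only window of the 45 whose interval lay above the ratio of 1.80 of all members. Among 45 windows, 1 such interval can arise from counting error alone. No such count was made over the other autosomes. The number of windows with at least 2-fold more R_NSCP1 peaks depended on the list. It was 32 of 41 at a −log10 q of at least 10, and 0 of 45 with lists of equal length. Windows of the other autosomes were not counted at these settings, so these counts are not given as traits of chromosome 19.

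**Figure D2:**
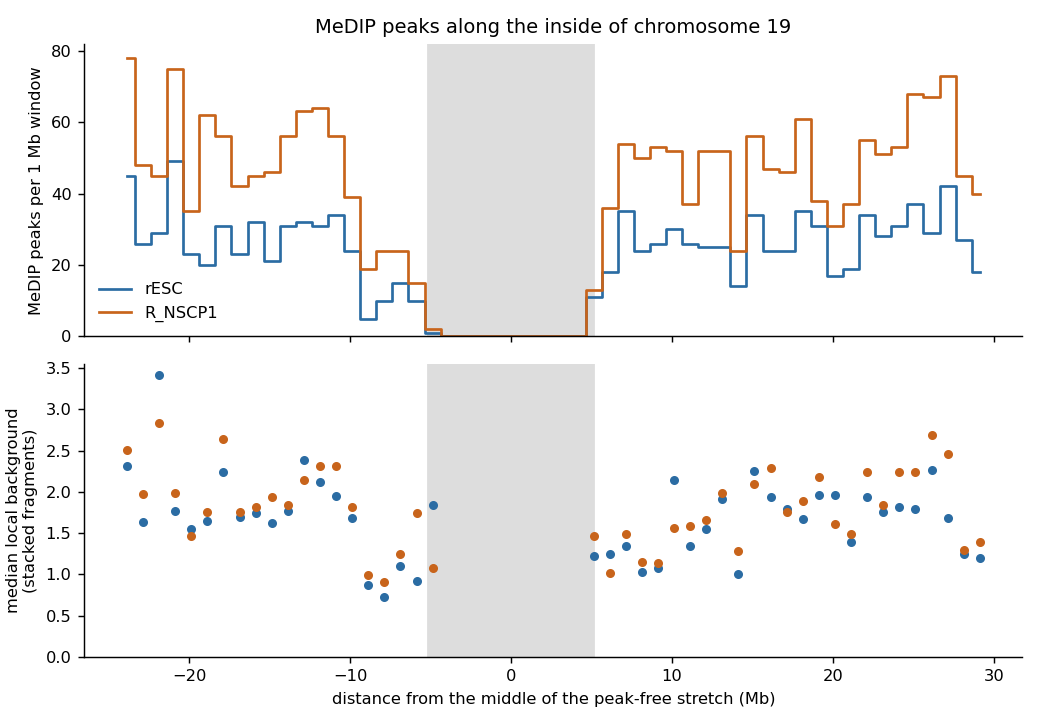
Upper panel: MeDIP peaks per full 1 Mb window inside chromosome 19 (y axis) against the distance of the window from the middle of the peak-free stretch in Mb (x axis), in rESC (blue) and R_NSCP1 (orange). Lower panel: median local background of those peaks in stacked fragments. The grey band is the peak-free stretch of 10.3 Mb. The 3 fullest windows are the same in both libraries, and the windows from 20000001 to 24000001, just before the band, hold 15 rESC peaks or fewer each.

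Members stood closely spaced. From a member to the next the median distance was 21915 bp for rESC and 12740 for R_NSCP1, against 41314 bp and 22542 bp inside the other autosomes. Neighbours less than 1000 bp apart made up 4.92% of the distances in rESC (57 of 1159) and 6.79% in R_NSCP1 (142 of 2090), against 3.13% and 4.01%. Apart from the gap, the widest interval between members of a single library was 518731 bp for rESC, from 48814809 to 49333539, and 521243 bp in R_NSCP1, from 23630616 to 24151858.

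The members were taller than peaks elsewhere but stood less far above their surroundings. The pileup, the number of fragments stacked at the peak, had a median of 15 in rESC (quartiles 12 to 19) and of 17 in R_NSCP1 (13 to 21). Inside the other autosomes the median was 12 in each library, with single autosomes from 10 to 13 in rESC and from 11 to 14 in R_NSCP1. The fold enrichment, the pileup over the local background with 1 added to both, had a median of 5.72 in rESC and 5.84 in R_NSCP1. These were the lowest of the 20 autosomes in each library, the others running from 5.88 to 6.28 and from 6.14 to 6.42.

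The local background links both facts and was recovered from the pileup and the fold enrichment of each peak. It is the number of fragments that would stack if the tags within 10000 bp, those of the peak included, were spread evenly, and it cannot fall below a floor set by the whole library, 0.721 in rESC and 0.714 in R_NSCP1. The median background of the members was 1.74 in rESC (95% interval of the median 1.67 to 1.79) and 1.91 in R_NSCP1 (1.84 to 1.96). The other autosomes reached at most 1.27 in each library and together had medians of 0.996 and 0.968. Only 4.40% of rESC members and 4.11% of R_NSCP1 members stood at the floor, where 30.02% and 30.4% of the peaks inside the other autosomes did. Along chromosome 19 the background was low on both flanks of the gap: its median was 1.27 in rESC and 1.42 in R_NSCP1 in the 5 Mb before it, and 2.004 and 2.15 in the rest of that side. In the 5 Mb after the gap, where peaks were denser than before it, the background was lower still, 1.195 and 1.204, against 1.77 and 1.98 in the rest of that side. The peak calls used no control library, so the level of unenriched DNA at these places is unknown.

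**Figure D3:**
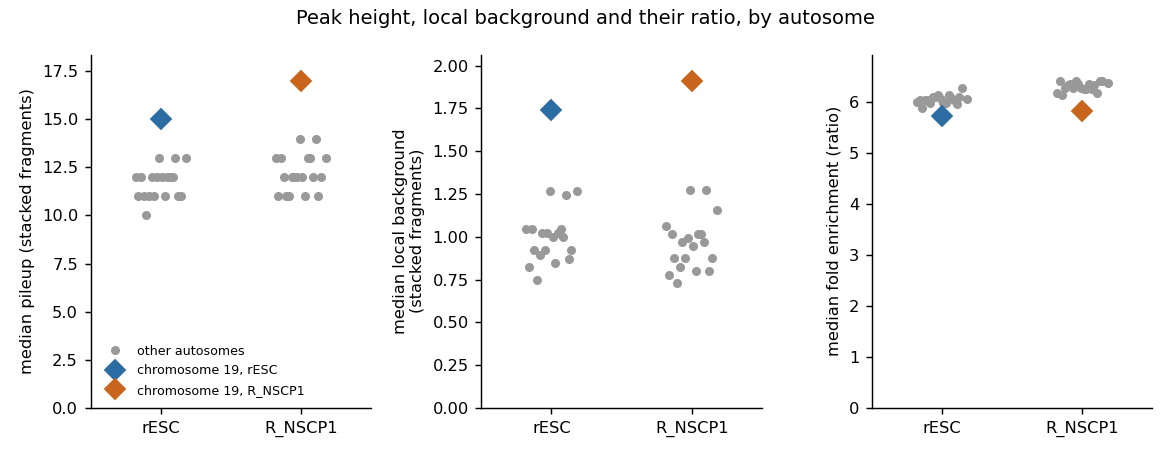
Median pileup, median local background and median fold enrichment (y axes, stacked fragments or ratio) of the peaks inside each autosome, in rESC and R_NSCP1 (x axis). Grey points are the other 19 autosomes and diamonds are chromosome 19, which has the highest pileup (15 and 17), the highest background (1.74 and 1.91) and the lowest fold enrichment (5.72 and 5.84).

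Very tall peaks, with a pileup of at least 50, were not more frequent among the members. A pileup of at least 50 was reached by 8 rESC members (0.690%) and 22 R_NSCP1 members (1.05%), against 1.60% and 1.44% inside the other autosomes. A fold enrichment of at least 10 was reached by 31 rESC members (2.67%) and 74 R_NSCP1 members (3.54%), against 5.22% and 6.72%. A pileup of at least 30 was reached by 5.17% of rESC members and 7.65% of R_NSCP1 members, against 5.25% and 4.72%. At this lower limit tall peaks were more frequent among the members in R_NSCP1, and about as frequent in rESC. Lengths differed little, with a median of 290.5 bp among rESC members and 289 bp among R_NSCP1 members, against 282 and 272 bp elsewhere. The members covered 388.4 kb in rESC and 694.6 kb in R_NSCP1, which is 0.717% and 1.28% of the inside of the chromosome, the highest shares of the 20 autosomes.

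The tallest members lay at the same places in both libraries. The highest pileup was 115 in rESC, at 55552437 to 55552940, and 139 in R_NSCP1, at 55552364 to 55552907. It stood on a background of 29.5 and 31.0, so that its fold enrichment was only 3.80 and 4.37. A pair of neighbouring rESC peaks, at 5859897 to 5860377 and 5860501 to 5860944, had pileups of 101 and 88 on backgrounds of 17.4 and 17.0, and the R_NSCP1 peaks over them had pileups of 112 and 61. The fold enrichments of the pair were 5.55 and 4.95 in rESC, and 6.14 and 3.496 in R_NSCP1. Of these, only the 6.14 lay above the median of the members of its library, 5.84. At these places the local background was high in both libraries. It includes the tags of the tall peaks themselves, and their part in it was not tested.

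Other tall members stood far above their surroundings. The peak at 53829130 to 53829858 had a pileup of 99 and a fold enrichment of 13.7 in rESC, and 112 and 14.6 in R_NSCP1, on backgrounds of 6.27 and 6.75 that were themselves above the members' median. The peak at 39336959 to 39337352 had a pileup of 75 in rESC and 66 in R_NSCP1, with fold enrichments of 21.3 and 19.4, the highest of all members in each library. In R_NSCP1 a peak at 46113776 to 46114493 also ranked among the 5 tallest, with 68 fragments against 49 in rESC. The peak at 24151810 to 24152224, the last rESC peak before the gap, had 53 fragments in rESC and 43 in R_NSCP1, at fold enrichments of 18.997 and 18.04; it was looked up for its fold enrichment after the data were seen.

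The longest members were 991, 913 and 909 bp in rESC and 977, 971 and 963 bp in R_NSCP1, and each overlapped a peak of the other library. The longest rESC member, at 8742614 to 8743604, met a peak of 467 bp in R_NSCP1, with pileups of 22 and 24. The longest R_NSCP1 member, at 56510047 to 56511023, met a peak of 526 bp in rESC, with pileups of 28 and 18. The R_NSCP1 member at 5425538 to 5426500 had a pileup of 49 where rESC had 22. The limit of 1000 bp left out 6 rESC peaks of 1009 to 1618 bp and 7 R_NSCP1 peaks of 1037 to 1648 bp. At the position limits, the first and last members had pileups of 34 and 10 in rESC and 15 and 17 in R_NSCP1, and the nearest peaks outside had 13 and 13, and 15 and 13.

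The share of peaks found in both libraries was the highest of the 20 autosomes inside chromosome 19, in rESC and in R_NSCP1. An R_NSCP1 peak shared at least 1 bp with 865 of the rESC members (74.6%, 95% Wilson interval 72.0% to 77.0%), where inside all 20 autosomes 64.8% did and the next highest, chromosome 10, had 70.9%. Of the R_NSCP1 members, 863 (41.3%, 39.2% to 43.4%) overlapped an rESC peak, against 36.8% over all 20 autosomes and 38.0% on chromosome 10. This left 295 rESC members and 1228 R_NSCP1 members without a partner. With lists of equal length the shares of the members were 60.4% and 52.4%. Those of the other autosomes were not computed with equal lists, so the rank of chromosome 19 there is unknown.

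Shared members were the taller ones. In rESC they had a median pileup of 16, against 12 for members without a partner, and in R_NSCP1 20 against 15. They were also longer, with medians of 315 against 258 bp in rESC and 360 against 264 bp in R_NSCP1. Inside the other autosomes the same medians of pileup were 13 against 10 and 16 against 11. A member without a partner on chromosome 19 was thus about as tall as a shared peak elsewhere, while its median fold enrichment of 5.43 in rESC and 5.55 in R_NSCP1 was below the 5.78 and 5.84 of unshared peaks elsewhere.

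How chromosome 19 compared with the other autosomes in sharing depended on which peaks were set side by side. The splits used here were chosen with the data in view. Among rESC peaks with a −log10 q under 5, 63.4% of members (56.3% to 70.0%) and 40.1% of peaks elsewhere (39.0% to 41.3%) were shared. From 5 to 10 the shares were 70.4% (67.0% to 73.7%) and 62.2% (61.6% to 62.9%), and from 10 upward the intervals overlapped. Given the same mix of −log10 q as the members, peaks of the other autosomes would be shared in 65.8% in rESC and 38.6% in R_NSCP1, both below the 74.6% and 41.3% of the members.

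Set beside peaks of like local background, the members were shared less often over their whole mix in R_NSCP1, and about as often in rESC. Given the members' mix of background, peaks elsewhere would be shared in 76.3% in rESC and 49.2% in R_NSCP1. The value for rESC lay inside the interval of the members' share (72.0% to 77.0%), and that for R_NSCP1 lay above it (39.2% to 43.4%). In rESC the share lay above that of the other autosomes for backgrounds under 1, at 56.7% (49.4% to 63.8%) against 52.3%, and below it in the 4 classes from 1 upward, with overlapping intervals in each of the 5. For backgrounds of 3 or more it was 85.6% (79.7% to 89.9%) against 90.5% (89.2% to 91.7%). In R_NSCP1 the difference was plainer: 44.0% (40.0% to 48.1%) against 54.5% (53.2% to 55.9%) for backgrounds of 2 to 3, and 54.0% (49.0% to 58.9%) against 70.3% (68.7% to 71.9%) for 3 or more. In this highest class the median pileup was 24 among members and 30 elsewhere, so peaks of like background still differed in height.

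**Figure D4:**
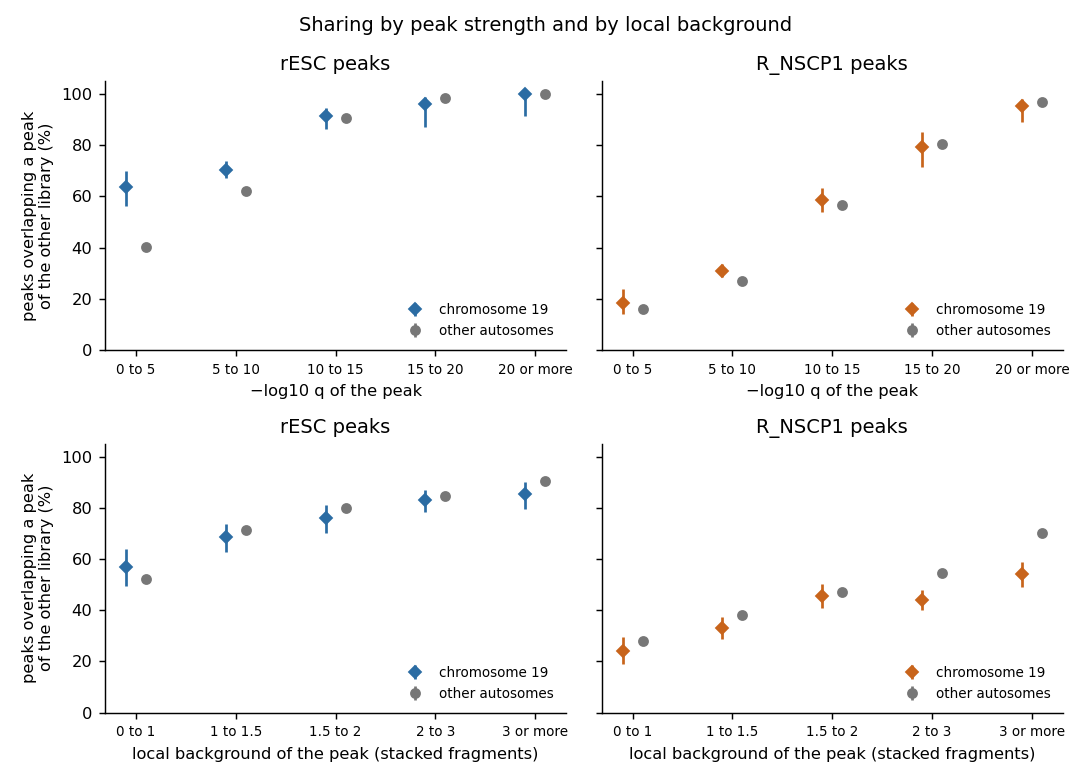
Percentage of peaks that overlapped a peak of the other library (y axes), in rESC (left) and R_NSCP1 (right), by −log10 q of the peak (upper row, x axis) and by its local background in stacked fragments (lower row, x axis). Diamonds are members inside chromosome 19 and grey points the other autosomes, with 95% Wilson intervals. At a low −log10 q the rESC members are shared more often (63.4% against 40.1%), and at a background of 3 or more the R_NSCP1 members are shared less often (54.0% against 70.3%).

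Where a member of rESC and an R_NSCP1 peak matched each other and no further peak, their heights could be set side by side. There were 825 such pairs, with a median pileup of 16 in rESC and 20 in R_NSCP1. After dividing the R_NSCP1 pileup by the ratio of tags, 1.04, the median pair was 1.16 times as high in R_NSCP1 as in rESC, and 584 of 825 pairs (70.8%) were higher in R_NSCP1. Inside the other autosomes 21994 pairs had a median ratio of 1.09, and 63.4% were higher in R_NSCP1. Chromosomes 16 and 19 had the highest median, both 1.16. Differences of 2-fold were rare: 27 pairs (3.27%) were at least 2-fold higher in R_NSCP1, against 2.42% over all 20 autosomes. None was 2-fold higher in rESC, which allows a share of up to 0.364%, against 0.434% over all 20 autosomes. These pairs hold only places called in both libraries, so members found in a single library do not enter.

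The local tag density of the pairs differed between the libraries in the same direction. It includes the tags of the peak itself, so a taller peak raises it too, and it is not a result separate from the heights. For 795 pairs above the floor in both libraries, the tags within 10000 bp were taken relative to all tags of the library. In the median they were 1.15 times as dense in R_NSCP1 as in rESC (95% interval of the median 1.13 to 1.17). They were denser in R_NSCP1 in 589 of these pairs (74.1%), against 61.6% over the other autosomes and 69.8% on chromosome 16. The median of 1.15 was the highest of the 20 autosomes, followed by chromosome 16 with 1.12 (1.10 to 1.14), whose interval overlapped it. The other autosomes together stood at 1.06. The fold enrichment of the pairs, which sets height against surroundings, was 1.11 times as high in R_NSCP1 inside chromosome 19, twelfth of the 20. Relative to their surroundings the paired peaks thus differed between the libraries inside chromosome 19 as they did elsewhere. What the denser surroundings in R_NSCP1 rest on was not tested.

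**Figure D5:**
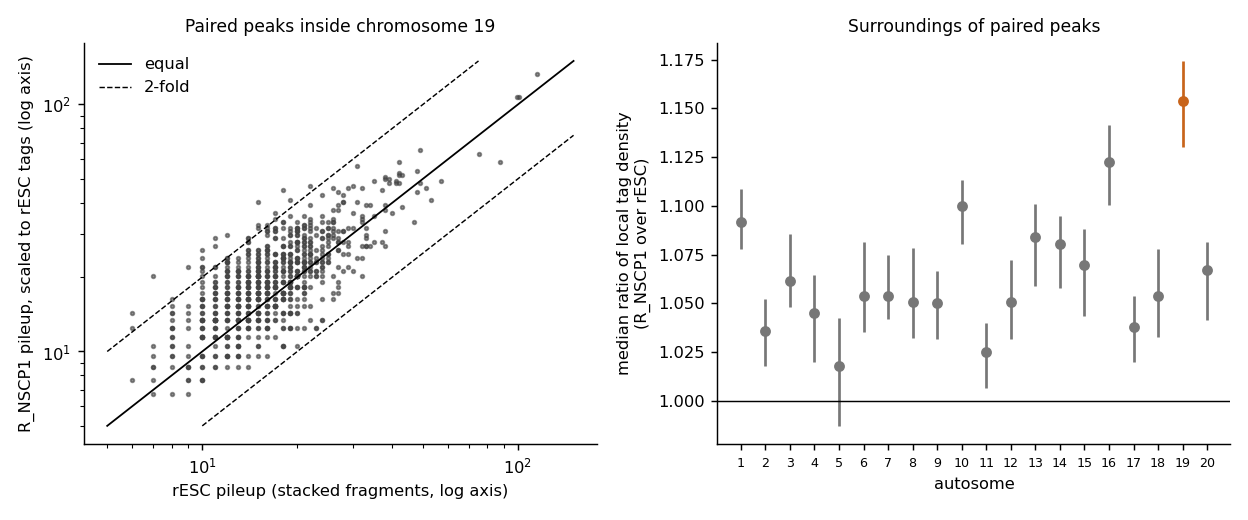
Left: pileup of 825 paired peaks inside chromosome 19 in rESC (x axis, log) and in R_NSCP1 scaled to the rESC tags (y axis, log), each point a pair, with lines for equal and 2-fold values. Right: median ratio of local tag density at paired peaks, tags of the peak included, R_NSCP1 over rESC (y axis), by autosome (x axis), with 95% intervals of the median. More pairs lie above the line of equality than below it, and chromosome 19 (orange) has the highest ratio, 1.15.

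The pairs that differed most, looked up after the data were seen, are given as examples. At 43831151 to 43831423 the pileup was 7 in rESC and 21 in R_NSCP1, at 14068320 to 14068610 it was 15 and 42, and at 18319669 to 18319998 it was 11 and 30. In the other direction it was 20 and 11 at 48543017 to 48543359, and 23 and 13 at both 10942891 to 10943186 and 49537642 to 49538022.

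The 5 strongest members without a partner had higher −log10 q values in R_NSCP1 than in rESC. They are the extremes of 1228 such members in R_NSCP1 and 295 in rESC, and a larger set reaches further by its size. Over all members without a partner the median −log10 q was 7.05 in R_NSCP1 and 6.02 in rESC. In R_NSCP1 the 5 with the highest −log10 q ran from 21.9 to 25.8, and in rESC from 11.9 to 16.2. The first in R_NSCP1, at 13704960 to 13705321, had a pileup of 44 on a background of 4.27, and the nearest rESC peak lay 4022 bp away. The peak at 17168517 to 17168892 had a pileup of 32 and a fold enrichment of 10.7, with no rESC peak within 23285 bp. Others lay at 13297613 to 13297948 (pileup 27, fold enrichment 11.9), 10017787 to 10018111 (29 and 10.7) and 51856730 to 51857110 (32 and 9.75). The last but one falls in the window from 10000001, the window with 20 rESC and 62 R_NSCP1 peaks.

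In rESC the first was the peak at 13321219 to 13321550, with a pileup of 23 and a fold enrichment of 9.34, 5529 bp from the nearest R_NSCP1 peak. It was followed by peaks at 52438838 to 52439198 (pileup 21, fold enrichment 9.69), 17603973 to 17604316 (28 and 6.26), 6018845 to 6019148 (19 and 8.27) and 44897573 to 44897845 (29 and 5.63). Only the peak at 44897573 had an R_NSCP1 peak within 5 kb, at 1785 bp. Since a peak list holds no value where no peak was called, the height of the other library at these places is unknown.

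lncRNAs gave a second readout that the choice of the members did not use. lncRNAs are long transcripts that are not translated, and some act on the chromatin near their own gene. The table listed 72 lncRNAs with midpoints inside the same limits, in 65 places once overlapping transcripts were merged, over 1.19 Mb. Their levels are FPKM (fragments scaled to the length of the transcript and the size of the library), of unknown depth. Differences were taken on the log2(FPKM + 0.1) scale, positive where R_NSCP1 was higher. Of the 72, 29 (40.3%) were higher by 2-fold or more in rESC and 17 (23.6%) in R_NSCP1, where over all 1395 lncRNAs 30.8% and 34.7% were. The median difference was -0.51 inside chromosome 19 and 0.09 over all lncRNAs, and 4 lncRNAs were listed at 0 in each library. Among lncRNAs above 0 in both libraries, the whole table leaned the other way, with 30.7% higher in rESC, 28.5% in R_NSCP1 and a median of -0.09, and the 64 inside chromosome 19 had 25 and 13 with a median of -0.51. With a pseudocount of 1, 23 and 11 remained past 2-fold.

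Members were found in lncRNA bodies less often than the length of the bodies would give, though within counting error. The merged bodies took 2.71% of the inside of chromosome 19 without the gap, and held 28 rESC members (2.41%) and 42 R_NSCP1 members (2.01%). That is 23.6 rESC peaks per Mb of body (15.7 to 34.0) and 35.3 R_NSCP1 peaks per Mb (25.5 to 47.8), against 26.4 and 47.7 for the inside without the gap. The R_NSCP1 value of the inside lay only just within the interval. Long bodies, from 21414675 to 21526655 and from 22838004 to 23116685, lay in the sparse 5 Mb before the gap. The density of the whole inside is therefore not the rate to be met at each body. A member lay in the body of 14 lncRNAs in rESC and of 22 in R_NSCP1, and within 1000 bp of the start of 4 and 5. In all, 22 lncRNAs had a member in the body or near the start. Of these, 11 passed 2-fold towards rESC and 4 towards R_NSCP1, and of the 50 without a member 18 and 13; whether these splits differ was not tested.

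The most abundant of the 22 was a short transcript of the plus strand from 43589578 to 43590338, at FPKM 81.0 in rESC against 15.1 in R_NSCP1 (log2 difference -2.42). A peak shared by both libraries covered most of it, with a pileup of 20 in rESC and 32 in R_NSCP1. Near the start of a further transcript, on the minus strand from 44492537 to 44494905, a shared peak had pileups of 25 and 24, and the FPKM was 4.92 and 2.49. These were 2 of the 4 lncRNAs with a member near the start in both libraries, and the others, looked up after the data were seen, went in different directions. The minus-strand lncRNA from 47656036 to 47657237 had FPKM 3.56 in rESC against 0.117 in R_NSCP1, with shared peaks of pileup 14 and 16. The plus-strand lncRNA from 42859645 to 42861004 had 1.06 and 2.16, with shared peaks of pileup 15 and 20. A peak near the start in both cell types was thus found beside lower and higher lncRNA levels.

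In longer bodies the peaks of the libraries were only partly the same. The plus-strand lncRNA from 13346240 to 13398214, at FPKM 41.7 in rESC and 14.5 in R_NSCP1, held 4 rESC and 3 R_NSCP1 members. Of these, 2 in each library were shared. The plus-strand lncRNA from 21414675 to 21526655, at 5.48 and 0.566, held 2 rESC and 6 R_NSCP1 members, and the minus-strand lncRNA from 20947191 to 20975573, at 25.3 and 2.96, held 0 and 2. A minus-strand lncRNA from 41682677 to 41687440, at 6.65 in rESC and listed at 0 in R_NSCP1, held 1 R_NSCP1 member and no rESC member. A second transcript with the same lower end stood at 3.003 and 0.

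Other lncRNAs with members differed less or in the other direction. The plus-strand lncRNA from 13675740 to 13680073 stood at 26.2 and 20.3 and held 1 R_NSCP1 member. The minus-strand lncRNA from 56074431 to 56084686, at 12.7 and 6.19, held a shared peak with pileups of 10 and 17. The minus-strand lncRNA from 58608487 to 58672860 was higher in R_NSCP1 (FPKM 2.15 in rESC and 6.90 in R_NSCP1). So was that from 57732672 to 57743686 (1.61 and 4.80). Each held the same number of members in both libraries, 2 and 1. The other lncRNAs with a member that passed 2-fold towards R_NSCP1 were looked up after the data were seen. The plus-strand lncRNA from 45557553 to 45601488 (1.28 and 2.90) held 3 rESC and 6 R_NSCP1 members. That from 11971882 to 12019588 held 1 in each library. R_NSCP1 had more members than rESC inside chromosome 19 as a whole. Whether member counts go with lncRNA levels was not tested. Among the 5 most abundant lncRNAs inside chromosome 19, 2 held no member: those from 20470079 to 20488426, at 43.2 and 9.95, and from 58190689 to 58238018, at 35.8 and 21.2.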

How the data were processed

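The members, lists and comparisons were chosen with earlier results of these data known. Per the file headers, MACS 2.1.0.20150731 called the peaks of each MeDIP library alone, with no control, a q cutoff of 0.01 and fragment lengths of 249 bp (rESC) and 236 bp (R_NSCP1). BWA 0.7.7 and TopHat2 2.0.11 are named in the submitters' processing notes. The deposited pileup signal is not scaled between libraries, and the deposited fold enrichment and −log10 p and −log10 q values refer to the local background of the same library. Local background was computed as (pileup + 1) over fold enrichment, minus 1; a Poisson tail with this background gave the deposited −log10 p within 1% for 48836 of 48838 rESC and 83526 of 83528 R_NSCP1 peaks. The lncRNA levels are FPKM as deposited, by a method not given in the sources used here. A deposited p-value column in that table was not used.

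Overlaps were counted against the whole list of the other library. Intervals are at 95%: Wilson for shares, exact for counts and ratios, and order statistics for medians; a count of 0 allows up to 3 counts. Peaks named are the 5 tallest, the 5 unshared with the highest −log10 q and the 3 longest per library, with the fullest, emptiest and 2-fold windows. lncRNAs named are from among the 10 most abundant with a member and the 5 most abundant of all. Other items are said to be chosen after the data were seen. The overlap and background steps were tested on simulated data. Alternatives were thresholds, limits, overlap, window grid and list length. Scripts ran in Python 3.11.15 with scipy 1.17.1, pandas 2.3.3, numpy 2.4.6 and matplotlib 3.10.9.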

Additional observations from a re-analysis of the deposited data

How the results depend on the processing

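Densities, density ratios, pileups, peak ratios, shared percentages and 2-fold counts of windows and lncRNAs were recomputed under other settings; the other values (background, fold enrichment, spacing, paired peaks, matched shares, lncRNA overlap) were not. Of 77 recomputed values, 49 stayed within the interval of the reported value or, for densities per Mb and counts, within 1.5 times of it. For densities this rule is wider than their Poisson intervals, and some that stayed by it lay outside those intervals. When only peaks with −log10 q from 10 upward were kept, the peaks per Mb were 4.87 in rESC and 12.2 in R_NSCP1, their ratio to the other autosomes 1.62 and 1.79, the median pileups 23 and 24, the ratio of R_NSCP1 to rESC peaks 2.51, the shared R_NSCP1 peaks 29.0% and the windows with 2-fold more R_NSCP1 peaks 32. At 5, the R_NSCP1 density ratio was 1.65 and its shared peaks 39.2%. With limits of 10 Mb from each end, the density ratios were 1.41 in rESC and 1.47 in R_NSCP1. The densities were then 18.9 and 34.4 peaks per Mb, below the Poisson intervals of the reported densities. With the 48838 strongest peaks of each library, R_NSCP1 had 24.4 peaks per Mb, a density ratio of 1.77, a median pileup of 19 and 52.4% shared; rESC had 60.4% shared, the ratio of R_NSCP1 to rESC peaks was 1.14 and 0 windows were 2-fold. An overlap of at least 50% of both peaks gave 67.3% shared in rESC and 37.3% in R_NSCP1, and a summit inside the other peak gave 38.7% in R_NSCP1. Scaled to the tags of each library, the median pileups were 1.73 and 1.87. Without the longest empty stretches, a setting chosen after seeing the data, the density ratios were 1.83 and 1.88. With a pseudocount of 1, also chosen then, 11 lncRNAs were 2-fold higher in R_NSCP1. The density ratio stayed above 1 in both libraries under every setting run. Shared percentages and counts of 2-fold windows were recomputed for chromosome 19 alone, so how it compared with the other autosomes in these is unknown. Stricter thresholds and shorter lists leave fewer peaks by construction; the cause of the other moves was not tested. No paired analysis was possible because each cell type had 1 library. Calls near the threshold rest on 6 or more stacked fragments, which limits what an unshared peak can show.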
